A study of Mus musculus with 48 samples.

Results

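The 6 genes described here are Crh, Crhr1 and Crhbp of the corticotropin-releasing hormone (CRH) system, Nr3c2 and Nr3c1, which encode the 2 corticosteroid receptors, and Hsd11b1, which encodes a corticosteroid-activating enzyme. They were chosen by name, and all 6 were found among the 24421 genes of the count matrix. RNA was sequenced from the hippocampal Cornus Ammonis (CA) of 48 male mice, 1 library per mouse, after removal of the dentate gyrus. Glu-CB1-KO mice lack the cannabinoid CB1 receptor in glutamatergic neurons, through Cre driven by nex1 regulatory elements on floxed CB1 alleles (CB1f/f). GABA-CB1-KO mice lack it in GABAergic neurons, through Cre driven by dlx5/6 elements. The controls of each line were CB1-WT littermates, for which the labels give the same cross (nex-cre x CB1f/f or dlx5/6-cre x CB1f/f) without saying which alleles they carried. The mice were 8 weeks old by the labels, while the methods give a range that ends at 10 weeks. Basal mice came from the home cage, and open field mice had explored a new arena for 5 min. By the paper, the tissue of the open field mice was isolated an hour after this exposure. The groups held 5 Glu-CB1-WT and 7 Glu-CB1-KO mice in the basal state and again 5 and 7 after the open field, and in the other line 6 basal mice of either genotype, with 7 GABA-CB1-WT and 5 GABA-CB1-KO mice after the open field. The deletions follow a cell class wherever Cre was active and are not limited to the CA.

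CRH is a neuropeptide that starts the endocrine stress response in the hypothalamus and, in the hippocampus, is made by interneurons and acts on pyramidal neurons. It signals through the Gs-coupled receptor CRHR1, and the secreted CRH-binding protein (Crhbp), made in cortical and hippocampal areas mainly by somatostatin interneurons, holds the peptide away from the receptor. The adrenal corticosteroids released at the end of that response act in hippocampal neurons through the high-affinity mineralocorticoid receptor (Nr3c2) and the lower-affinity glucocorticoid receptor (Nr3c1), while 11β-hydroxysteroid dehydrogenase type 1 (Hsd11b1) regenerates active corticosterone inside cells.

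Library totals ranged from 25892654 to 34091080 counts, with a median of 30975561. Cnr1, the deleted gene, was lower in the KO mice of every comparison, with log2 fold changes of -0.73 and -0.72 in the Glu-CB1 line and -1.23 and -1.45 in the GABA-CB1 line. All markers on the 11 lists for cell types and neighbouring areas were detected in every group. Dentate granule markers summed to between 89.7 and 287 CPM, the counts scaled to the normalized library total. Thalamic markers summed to 104 to 157 CPM, and cortex and subiculum markers to 156 to 280 CPM. A set of 14 libraries, spread over all 8 groups, had Xkr4 below 6 CPM, while the other 34 had at least 8.8 CPM, and this set stood apart on the first principal component. All 14 came from the lowest range of animal numbers of their line, by the numbers in the sample titles. In the basal Glu-CB1 groups, set and range were the same 3 KO and 2 WT libraries. Leaving out the set and adjusting for animal numbers are therefore not separate checks. A further 4 libraries had more than 200 CPM of the choroid plexus gene Ttr. Results that rest on these libraries are given with and without them.

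Among the 6 genes, Crhbp was the one called between genotypes, and this was in opposite directions in the 2 lines. After the open field it was 1.53-fold higher in Glu-CB1-KO than in Glu-CB1-WT mice, and without the open field it fell to 0.736 of the WT level in GABA-CB1-KO mice. In Glu-CB1-KO mice the basal value (1.28-fold) and in GABA-CB1-KO mice the open field value (0.757-fold) lay on the same sides but did not pass the threshold. Crh, Crhr1, Nr3c1, Nr3c2 and Hsd11b1 were not called in any comparison at an adjusted p of 0.05. Between 0% and 1.3% of all genes tested were called in a comparison, so a missed threshold does not show equal levels.

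**Figure D1:**
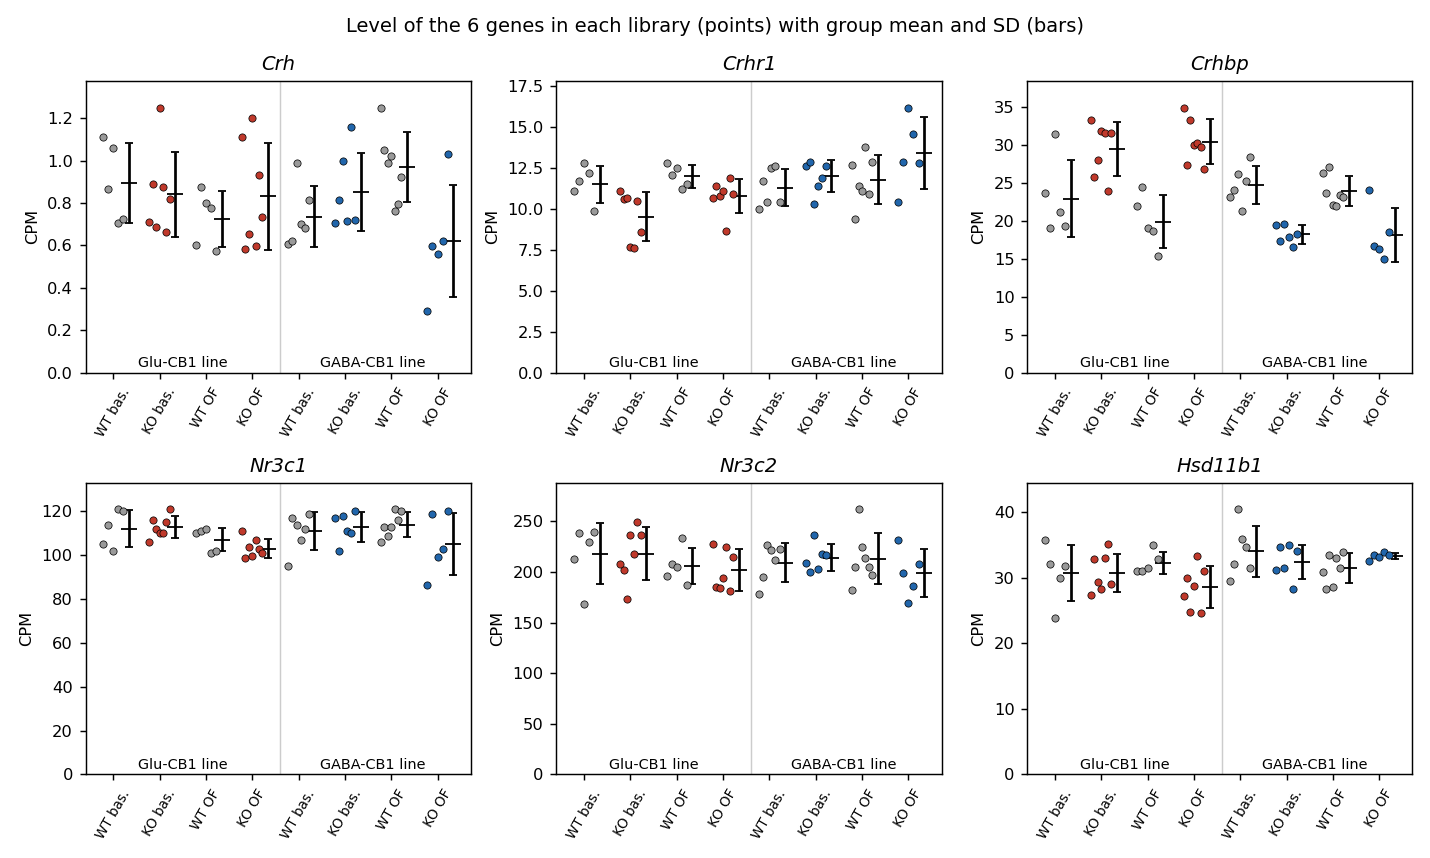
Level of each gene in CPM (y axis, starting at 0) in every library (points) of the 8 groups (x axis, bas. for basal and OF for open field), with the group mean and SD (black bars); WT in grey, Glu-CB1-KO in red, GABA-CB1-KO in blue. The 7 Glu-CB1-KO open field libraries lie between 26.8 and 34.9 CPM of Crhbp, above the 5 WT libraries at 15.4 to 24.4 CPM, and the 6 GABA-CB1-KO basal libraries at 16.5 to 19.6 CPM lie below the 6 WT libraries at 21.3 to 28.4 CPM.

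The 6 genes covered a wide range of expression. Per kilobase of exon, the median library had 51 CPM per kb of Nr3c2, 21.9 of Hsd11b1, 17.5 of Nr3c1, 14 of Crhbp, 4.71 of Crhr1 and 0.596 of Crh. Nr3c2 thus stood at the 92.1th percentile and Crh at the 14th percentile of the genes that passed the filter over all libraries. In the order of these levels, each gene exceeded the next one in 48 of 48 libraries, with the exception of Nr3c1 and Crhbp, where Nr3c1 was the higher one in 36 of 48. Although Hsd11b1 exceeded Nr3c1 within each library, their ranges over libraries overlapped, the lowest Hsd11b1 level being 16.6 and the highest Nr3c1 level 19.1 CPM per kb. Between the lowest and the highest of the 8 group means, Nr3c2 spanned 1.1-fold, Nr3c1 1.11-fold, Hsd11b1 1.19-fold, Crhr1 1.4-fold, Crh 1.56-fold and Crhbp 1.68-fold.

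Crhbp (chromosome 13, 95431376 to 95444831 on the minus strand of mm10) encodes the secreted protein that binds CRH. The 250 bases upstream of its annotated start are shown because Crhbp was called between genotypes, beside the same stretch of Sst, the gene whose level followed Crhbp most closely over the libraries. Both are RefSeq promoter sequences of build GRCm38.p6, written 5′ to 3′ on the minus strand, from chr13:95444832-95445081 and chr16:23890845-23891094. Capitals mark TGACG on either strand, the core of the cAMP response element, whose full palindrome is TGACGTCA.
Crhbp: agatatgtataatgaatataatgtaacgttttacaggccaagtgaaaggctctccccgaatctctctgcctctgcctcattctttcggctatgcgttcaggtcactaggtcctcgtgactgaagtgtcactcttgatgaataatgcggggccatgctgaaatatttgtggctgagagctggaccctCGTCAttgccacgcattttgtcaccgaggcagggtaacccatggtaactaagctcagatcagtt
Sst: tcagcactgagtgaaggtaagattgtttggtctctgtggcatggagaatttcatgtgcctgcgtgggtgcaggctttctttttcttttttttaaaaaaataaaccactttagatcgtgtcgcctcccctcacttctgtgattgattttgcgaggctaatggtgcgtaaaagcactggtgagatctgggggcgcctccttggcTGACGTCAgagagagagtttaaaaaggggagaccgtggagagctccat
The Crhbp stretch held 1 core, on the reverse strand with its first base 64 bases upstream of the start, and no full palindrome, whereas the Sst stretch held the full palindrome, 48 bases upstream. The core occurred in 17.8% and the palindrome in 1.55% of the 32851 promoters of the same length. Of the 6 genes, the promoter table held 4, Crhbp, Crhr1, Nr3c2 and Hsd11b1, and among these the core occurred in Crhbp alone.

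In the Glu-CB1 line after the open field, the 5 WT libraries had 21.9, 24.4, 19, 18.7 and 15.4 CPM of Crhbp, and the 7 KO libraries had a lowest value of 26.8, a median of 30 and a highest value of 34.9 CPM. Every KO library was thus higher than every WT library, with group means of 30.4 ± 2.94 CPM (SD, n = 7) and 19.9 ± 3.43 CPM (SD, n = 5). Crhbp was 1 of 112 genes whose KO and WT libraries did not overlap, 0.743% of the genes tested. On the log2 scale the difference was 0.61 (SE 0.10, 95% interval 0.4 to 0.82), with an adjusted p of 0.0174 by edgeR's quasi-likelihood test. Crhbp was the 1 member called in this comparison, in which 0.272% of the 15078 genes tested were called. The adjusted p was 0.0597 without the third and 0.0647 without the fourth WT open field library, and 0.0803, with a log2 fold change of 0.58, without the libraries low in Xkr4, within which and outside which the differences of the mean log2 CPM were 0.64 and 0.6. In bulk tissue, fewer cells of a type and less RNA per cell cannot be told apart.

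In the basal state the Glu-CB1 groups overlapped. The 5 WT libraries had 23.6, 19, 31.4, 21.1 and 19.3 CPM of Crhbp, and the 7 KO libraries ranged from 23.9 through a median of 31.5 to 33.3 CPM. All KO libraries exceeded 4 of the 5 WT libraries, and the remaining WT library, at 31.4 CPM, lay within the KO range, just below the KO median. This difference of 0.36 on the log2 scale (SE 0.12, 95% interval 0.1 to 0.61) had an unadjusted p of 0.00905 and an adjusted p of 0.999 (edgeR). No member was called in this comparison (0.0198% of genes called), by edgeR or by DESeq2. By edgeR, 2 members had an unadjusted p under 0.05, as did 541 of the 15138 genes tested. No member separated the genotypes without overlap either, as 0.198% of genes did. Without that WT library, the third, the log2 fold change was 0.5, with an adjusted p of 0.212. The difference of the mean log2 CPM was 0.09 within the libraries low in Xkr4 and 0.57 in the others. Among these others, 1 range of animal numbers held 2 KO and 0 WT mice, so that genotype and range were partly confounded. In the range of the highest numbers, with 2 KO and 3 WT mice, the difference was 0.46.

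In the GABA-CB1 line the order of the genotypes was the other way round. The 6 basal WT libraries ranged from 21.3 through a median of 24.6 to 28.4 CPM, and the 6 basal KO libraries from 16.5 through 18.1 to 19.6 CPM. No KO library reached the lowest WT library, as was the case for 0.709% of the genes tested when both directions of separation are counted. KO differed from WT by -0.44 on the log2 scale (SE 0.07, 95% interval -0.58 to -0.3), with an adjusted p of 0.0094 (edgeR), and 0.245% of the 15082 genes were called, Crhbp being the 1 member among them. The call held without each library in turn, with adjusted p from 0.00458 to 0.0331, and without the libraries low in Xkr4 (-0.45, adjusted p = 0.0482), but not with the range of animal numbers as a covariate (log2 fold change -0.43, adjusted p = 0.198) or with all 48 libraries in 1 fit (-0.44, adjusted p = 0.07). Within the ranges of animal numbers that held both genotypes, the difference of the mean log2 CPM was -0.41 in each of 2 ranges. These were small, with 2 KO and 4 WT mice in 1 range and 1 KO and 2 WT mice in the other. The remaining range held 3 KO and 0 WT mice, so that genotype and range were partly confounded.

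After the open field, the 7 GABA-CB1-WT libraries had between 22 and 27.1 CPM of Crhbp, with a median of 23.4 CPM, and the 5 KO libraries had 24.1, 16.7, 16.3, 15 and 18.5 CPM. Of the 5 KO libraries, 4 lay below all WT libraries, and the first replicate, at 24.1 CPM, lay within the WT range. No member was free of overlap in this comparison, in which 0.987% of genes were. The difference was -0.40 on the log2 scale (SE 0.10, 95% interval -0.61 to -0.19), with an unadjusted p of 0.0011 and an adjusted p of 0.177 (edgeR). No member was called by edgeR in this comparison (0.0199% of genes called), and Crhbp was called by DESeq2 (adjusted p = 0.0154). By edgeR, 2 members had an unadjusted p under 0.05, as did 2000 of the 15097 genes tested. Without the first KO replicate the log2 fold change was -0.53, with an adjusted p of 0.0202. That library also had the lowest Crh level (0.293 CPM) and the lowest Nr3c1 level (86.3 CPM) of all 48 libraries, and its part in the result beyond its removal was not tested.

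Taking both states of a line in 1 fit, Crhbp was called in each line. The log2 fold change between KO and WT was 0.48 (SE 0.08, 95% interval 0.31 to 0.65, adjusted p = 0.0042) in the Glu-CB1 line, where 0.241% of genes were called. It was -0.42 (SE 0.06, 95% interval -0.55 to -0.3, adjusted p = 0.000824) in the GABA-CB1 line, where 0.449% were called. Both calls held in each of the 10 alternative fits and in each of the 24 fits that left out 1 library. Without the 4 libraries high in Ttr, the calls of Crhbp in single states held as well. The difference between the lines was tested directly, as the KO-WT difference of the Glu-CB1 line minus that of the GABA-CB1 line. It was 0.8 on the log2 scale (SE 0.14, adjusted p = 0.0075) in the basal state, with 0.279% of genes called, and 1.01 (SE 0.15, adjusted p = 0.000947) after the open field, with 0.568% called. The basal value was 0.7 with an adjusted p of 0.0772 when the range of animal numbers was a covariate. Each line had its own Cre driver, so that line and driver cannot be told apart.

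The WT mice of the 2 lines were compared as a background to this contrast. Their Crhbp levels differed by -0.11 (SE 0.11) in the basal state and by -0.27 (SE 0.10) after the open field on the log2 scale, Glu-CB1-WT minus GABA-CB1-WT, with adjusted p of 0.964 and 0.833 (edgeR). No member was called in either state, where 0% of genes were called by edgeR, and DESeq2 likewise called no member. The open field value had an unadjusted p of 0.0152. The KO groups were thus compared with WT groups whose means ran from 19.9 to 24.7 CPM. After the open field, all 14 interneuron markers were lower in Glu-CB1-WT than in GABA-CB1-WT mice (median log2 fold change -0.11), though none was called. All 6 CA1 markers were lower as well, while 7 of the 8 CA2 and CA3 markers were higher. In the basal state 10 interneuron markers were lower and 4 higher. The part of these differences in the Crhbp values was not tested.

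**Figure D2:**
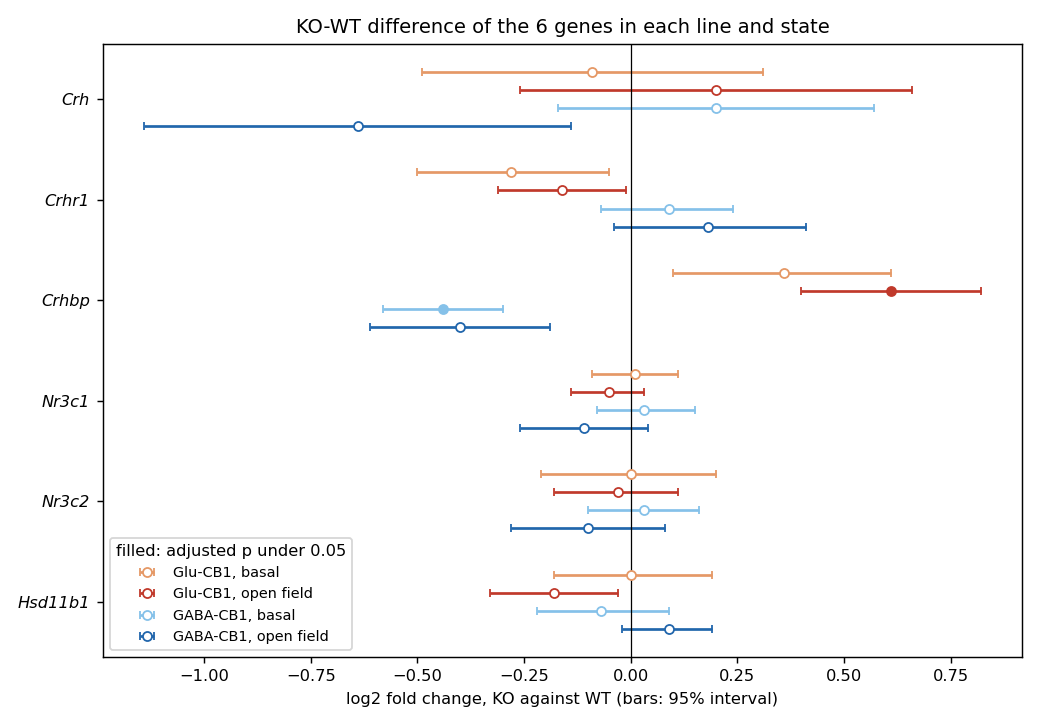
log2 fold change between KO and WT mice (x axis) of the 6 genes (y axis) in each line and state, with 95% intervals (bars) and filled symbols where the adjusted p was under 0.05. The filled symbols are Crhbp at 0.61 (Glu-CB1, open field) and at -0.44 (GABA-CB1, basal), on opposite sides of 0.

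Sst, which encodes somatostatin and marks the interneurons that make most Crhbp, differed between genotypes in the same direction as Crhbp. In the Glu-CB1 line after the open field, Sst was at 89.2, 113, 89.3, 77.2 and 69.5 CPM in the WT libraries and between 109 and 125 CPM in the KO libraries, so that 1 WT library reached into the KO range. Over both states its log2 fold change was 0.36 (SE 0.08, adjusted p = 0.0447) in the Glu-CB1 line and -0.31 (SE 0.05, adjusted p = 0.000988) in the GABA-CB1 line (edgeR). Npy, which encodes neuropeptide Y and is made by an overlapping set of interneurons, rose by 0.48 (SE 0.06, adjusted p = 0.000112) in the Glu-CB1 line. In the GABA-CB1 line its value was -0.25 (SE 0.06, adjusted p = 0.0857). Gad1 and Gad2, the GABA-synthesising enzymes of all interneurons, had values of 0.09 and 0.04 in the Glu-CB1 line and -0.07 and -0.04 in the GABA-CB1 line over both states, and neither was called there. After the open field, however, Gad1 was at 323 to 373 CPM in Glu-CB1-WT and at 382 to 423 CPM in Glu-CB1-KO libraries (log2 fold change 0.14, adjusted p = 0.231). These did not overlap, as was the case for 0.743% of the genes tested. The line difference of Gad1 in that state was called at 0.25 (SE 0.05, adjusted p = 0.00994), as were those of Sst at 0.78 (adjusted p = 0.00108) and Npy at 0.76 (adjusted p = 0.00417). Of the 14 interneuron markers, all detected, 2 were called in the Glu-CB1 line (Sst and Npy, both higher) and 2 in the GABA-CB1 line (Sst and Pvalb, both lower, Pvalb at -0.17) over both states. Called or not, all 14 markers were higher in Glu-CB1-KO mice (median 0.1), and 11 were lower and 3 higher in GABA-CB1-KO mice (median -0.05). Their summed level ranged from 1052 to 1213 CPM in Glu-CB1-WT and from 1215 to 1357 CPM in Glu-CB1-KO open field libraries, ranges that nearly touched but did not overlap. In the basal GABA-CB1 groups it ranged from 1158 to 1288 CPM in WT and from 1133 to 1200 CPM in KO libraries, with overlap. The part of the interneuron markers in the Crhbp difference was not tested.

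To describe Crhbp relative to Sst, the ratio of Crhbp to Sst counts was computed in each library, a measure chosen after the data had been seen. It was narrow in the WT groups, with means of 0.229 ± 0.0244 (SD, n = 5) and 0.228 ± 0.0149 (SD, n = 5) in the Glu-CB1 line and 0.233 ± 0.0238 (SD, n = 6) and 0.224 ± 0.0105 (SD, n = 7) in the GABA-CB1 line, basal and open field. In KO mice the means were 0.244 ± 0.018 and 0.256 ± 0.0218 (SD, n = 7 each) in the Glu-CB1 line and 0.207 ± 0.012 (SD, n = 6) and 0.214 ± 0.0306 (SD, n = 5) in the GABA-CB1 line. The KO-WT difference of the log2 ratio was 0.17 (SE 0.0609) after the open field in the Glu-CB1 line, with p = 0.0202 in a two-sided exact permutation test and 0.147 after adjustment over the 8 ratio tests. In the basal GABA-CB1 groups it was -0.16 (SE 0.0681), with an exact permutation p of 0.0368, and again 0.147 after adjustment. These differences were smaller than those of Crhbp itself (0.61 and -0.44), and no ratio test passed the threshold after adjustment. Because Sst differed in the same direction as Crhbp, a smaller difference was built into the ratio. The ratio does not count somatostatin cells, and no conclusion about them is drawn from it.

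**Figure D3:**
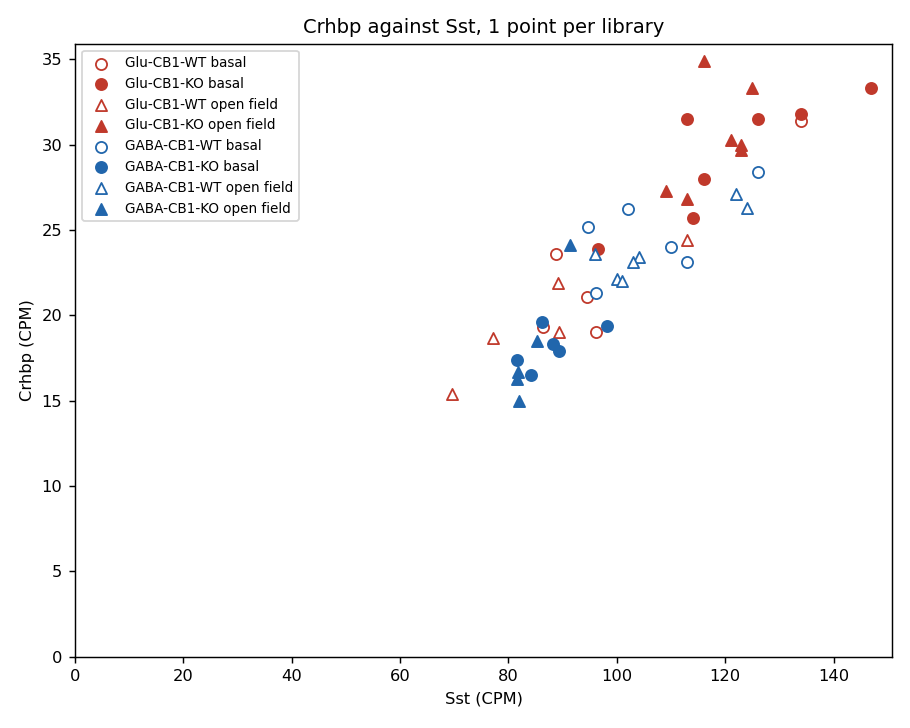
Crhbp (y axis) against Sst (x axis), both in CPM, with 1 point per library; open symbols are WT, filled symbols KO, red the Glu-CB1 line, blue the GABA-CB1 line, circles basal and triangles open field. Glu-CB1-KO libraries reach 34.9 CPM of Crhbp at the upper right, and GABA-CB1-KO libraries lie at the lower left, the lowest at 15 CPM.

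After subtraction of the 8 group means, Sst was the gene most like Crhbp among 15569 ranked genes, with Pearson's r = 0.772 and Spearman's rho = 0.672 of the log2 CPM over 48 libraries. Rheb, the GTPase that activates mTORC1, followed (r = 0.668), with Npy (r = 0.634) as the gene of rank 4 and Pvalb at rank 6. These correlations are descriptions, since the points share library depth and composition, and in the 34 libraries not low in Xkr4 the r of Sst was 0.71. For Crh, r with Crhbp was 0.169 over the 48 libraries and -0.0411 in the 34. The corresponding r of Crhbp over the 48 libraries was 0.451 with Gad1 and 0.185 with Gad2.

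Crh itself (chromosome 3, 19693401 to 19695396), the ligand, was near the limit of what these libraries resolve. Between 9 and 42 reads per library fell on it, so that counting error alone is a large share of its spread, with coefficients of variation between 17% and 42.8% within groups. The mean level was lowest in GABA-CB1-KO mice after the open field at 0.621 ± 0.266 CPM (SD, n = 5) and highest in their WT littermates at 0.969 ± 0.165 CPM (SD, n = 7). The 5 KO libraries had 0.293, 0.597, 0.561, 0.619 and 1.03 CPM, and the 7 WT libraries ranged from 0.761 through 0.988 to 1.25 CPM. All but 1 of the KO libraries lay below every WT library, and the fifth lay within their range. On the log2 scale the difference of -0.64 (SE 0.23, 95% interval -1.14 to -0.14) had an unadjusted p of 0.0149 and an adjusted p of 0.289 (edgeR), and it was -0.46 (adjusted p = 0.374) without the first and -0.90 (adjusted p = 0.121) without the fifth KO replicate.

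In the basal state the Crh values of the GABA-CB1 line lay the other way, at 0.852 ± 0.186 CPM in KO and 0.736 ± 0.145 CPM in WT mice (SD, n = 6 each). The change of the KO-WT difference with the open field was -0.84 on the log2 scale (SE 0.29, 95% interval -1.45 to -0.24), with an unadjusted p of 0.0083 and an adjusted p of 0.227 (edgeR). Neither edgeR nor DESeq2 called a member in this interaction. Crh was the 1 member with an unadjusted p under 0.05 (edgeR), which 2237 of the 15374 genes tested had. In the Glu-CB1 line, the Crh difference between KO and WT was -0.09 (95% interval -0.49 to 0.31) in the basal state and 0.20 (95% interval -0.26 to 0.66) after the open field. These intervals are wider than those of Crhbp in the same comparisons.

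The other peptides of the family were close to absent from the libraries. Ucn, urocortin, had 3 reads in all and none in 45 of 48 libraries, Ucn3 had 27 reads and none in 27 libraries, and Ucn2 had 117 reads, at most 7 in a library. None of the 3 passed the filter on low counts. Crhr2, the receptor that binds the urocortins with high affinity, had between 22 and 134 reads per library, a median of 1.35 CPM, and was called in no comparison. Its KO-WT values were 0.13 and -0.09 in the Glu-CB1 line and -0.45 and 0.45 in the GABA-CB1 line, basal and open field. The medians of the choroid plexus markers were 1.19, 0.4, -1.76 and 2.55 in the same order. The part of choroid plexus tissue in the Crhr2 reads was not tested.

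Crhr1 (chromosome 11, 104132882 to 104175518), the Gs-coupled receptor of CRH, was at 9.54 to 13.4 CPM as group means. Among basal mice of the Glu-CB1 line, the 5 WT libraries had 11.1, 11.7, 12.8, 12.2 and 9.9 CPM, and the 7 KO libraries ranged from 7.61 through 10.5 to 11.1 CPM. Most KO libraries were lower than most WT libraries, and the groups overlapped between 9.9 and 11.1 CPM. Crhr1 differed by -0.28 on the log2 scale (SE 0.10, 95% interval -0.5 to -0.05), with an unadjusted p of 0.018 and an adjusted p of 0.999 (edgeR). After the open field it was -0.16 (SE 0.07, adjusted p = 0.691), and over both states -0.22 (SE 0.07, 95% interval -0.35 to -0.08), with an unadjusted p of 0.00289 and an adjusted p of 0.254. In the GABA-CB1 line the values had the other sign, 0.09 in the basal state, 0.18 after the open field and 0.14 over both (adjusted p of 0.761, 0.467 and 0.58).

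The difference between the lines in the KO-WT value of Crhr1 was -0.37 (SE 0.13, 95% interval -0.64 to -0.09) in the basal state and -0.34 (SE 0.13, 95% interval -0.62 to -0.07) after the open field. Neither passed the threshold, with adjusted p of 0.405 and 0.321. Crhr1 also moved with the library sets that stood apart. Within groups it was higher by 0.16 on the log2 scale in the 14 libraries low in Xkr4 than in the others, while Crhbp differed by 0.03 between the 2 sets. Among the genes most like Crhr1 after subtraction of group means were Pnpla6, a lysophospholipase (r = 0.799), and Pank4 of the pantothenate kinase family (r = 0.782).

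Downstream of CRHR1, none of the 15 signalling genes on the list, which holds G proteins, adenylyl cyclases, subunits of protein kinase A, CREB family factors, arrestins and receptor kinases, was called in any of the 4 comparisons of KO with WT. Their median log2 fold changes lay between -0.01 and 0.02, against medians of all genes between -0.002 and 0.002. Only 0.0198% to 0.272% of all genes were called in these comparisons, so a short list without a call does not show unchanged genes.

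The 2 corticosteroid receptors differed least between groups. Nr3c2 (chromosome 8, 76902508 to 77243639), the mineralocorticoid receptor, had group means from 199 to 218 CPM. In the basal Glu-CB1 line the 5 WT libraries had 213, 239, 168, 230 and 240 CPM and the KO libraries ranged from 173 through 218 to 249 CPM. The KO and WT ranges of Nr3c2 overlapped in all 4 comparisons. Between KO and WT it differed by 0 (95% interval -0.21 to 0.2) and -0.03 (-0.18 to 0.11) in the Glu-CB1 line and 0.03 (-0.1 to 0.16) and -0.10 (-0.28 to 0.08) in the GABA-CB1 line, basal and open field, on the log2 scale. These intervals leave room for changes of at most 0.28 on the log2 scale in either direction, less than the changes of Crhbp that were called.

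Nr3c2 is enriched in CA2 and present in all CA fields. Rgs14 and Amigo2, which mark CA2, and Pcp4, which marks CA2 among other neurons, had r of 0.223, -0.0535 and 0.127 with Nr3c2 over the 48 libraries, and none of the 3 was called in a comparison of KO with WT. In the GABA-CB1 line after the open field their means were nevertheless higher in KO mice, at 144, 59.8 and 54.5 CPM against 124, 50 and 47.8 CPM in WT mice. The genes most like Nr3c2 were Plcb1, a phospholipase C (r = 0.829), Epha4, an ephrin receptor (r = 0.785), and Lppr4, a lipid phosphate phosphatase-related protein (r = 0.763). Xkr4 had r = 0.598 with Nr3c2 over all libraries and -0.044 in the 34 libraries not low in it, and Nr3c2 was lower by 0.18 on the log2 scale in the 14 low libraries. The r of Plcb1, Epha4 and Lppr4 in the 34 libraries were 0.706, 0.618 and 0.554.

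Nr3c1 (chromosome 18, 39410545 to 39487245), the glucocorticoid receptor, ranged from 86.3 to 121 CPM over all libraries, with group means from 103 to 114 CPM. Its log2 fold changes between KO and WT were 0.01 (95% interval -0.09 to 0.11) and -0.05 (-0.14 to 0.03) in the Glu-CB1 line and 0.03 (-0.08 to 0.15) and -0.11 (-0.26 to 0.04) in the GABA-CB1 line. In the GABA-CB1-KO open field group the 5 libraries had 86.3, 119, 99.1, 103 and 120 CPM, and this group had the largest spread of Nr3c1 (SD 14.2 CPM). The genes most like it were Zfp365, a zinc-finger protein (r = 0.802), Galnt13, an N-acetylgalactosaminyltransferase (r = 0.749), and Ppip5k2, an inositol pyrophosphate kinase (r = 0.714).

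The balance of the 2 receptors was described by the ratio of Nr3c2 to Nr3c1, both per kilobase, in each library, again a measure chosen after the data had been seen. Its group means lay between 2.9 and 3.02, and its library values between 2.39 and 4.17. The KO-WT differences of the log2 ratio were -0.01 (SE 0.0903) and 0.02 (SE 0.0807) in the Glu-CB1 line and 0 (SE 0.0524) and 0.02 (SE 0.146) in the GABA-CB1 line. The two-sided exact permutation tests gave p between 0.836 and 0.996 before adjustment.

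Hsd11b1 (chromosome 1, 193221641 to 193264045), the reductase that regenerates active corticosterone, had group means from 28.5 to 34 CPM. In the Glu-CB1 line after the open field the WT libraries had 31, 31, 31.4, 35 and 32.8 CPM, and the KO libraries ranged from 24.6 through 28.7 to 33.3 CPM. KO and WT differed by -0.18 on the log2 scale (SE 0.07, 95% interval -0.33 to -0.03), with an unadjusted p of 0.0213 and an adjusted p of 0.563 (edgeR). The line difference of the KO-WT values after the open field was -0.27 (SE 0.09), with an unadjusted p of 0.00602 and an adjusted p of 0.225. Its other 3 KO-WT values were 0, -0.07 and 0.09, and none was called. The genes most like Hsd11b1 were Orai2, a calcium channel subunit (r = 0.673), Epha7, an ephrin receptor (r = 0.658), and Aldh1a1, a retinaldehyde dehydrogenase (r = 0.657).

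Hsd11b2, which encodes the inactivating isoenzyme, had 23 reads in all and none in 30 of 48 libraries, and did not pass the filter. The other 6 genes on the list of corticosteroid metabolism and transport, among them H6pd, which supplies the cofactor of Hsd11b1, and Cyp7b1, a neurosteroid hydroxylase, were tested and not called in any of the 4 KO comparisons. None of the 11 receptor chaperones, among them Fkbp5 and Fkbp4, and none of the 8 receptor coregulators was called in these comparisons either. Of all genes tested, 0.0198% and 0.272% were called in the Glu-CB1 line and 0.245% and 0.0199% in the GABA-CB1 line, basal and open field. Short lists without a call are therefore no sign that their genes were unchanged. The median log2 fold change of the chaperones was 0.02 and 0.06 in the Glu-CB1 line and 0 and -0.02 in the GABA-CB1 line, basal and open field.

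The response of the 6 genes to the open field was tested over both genotypes of each line. No member was called in either line by edgeR or DESeq2, where 1.3% of 15355 genes in the Glu-CB1 line and 1.03% of 15374 genes in the GABA-CB1 line were called. The value with the smallest unadjusted p was that of Nr3c1 in the Glu-CB1 line, -0.10 on the log2 scale (SE 0.03, 95% interval -0.16 to -0.03, unadjusted p = 0.00404, adjusted p = 0.122), the 1 member under 0.05 there. Of the 15355 genes tested in that line, 1964 had an unadjusted p under 0.05 (edgeR). In the GABA-CB1 line Nr3c1 was at -0.03 (95% interval -0.12 to 0.07), and no member had an unadjusted p under 0.05, against 1973 of the 15374 genes. Crhbp was at -0.08 (95% interval -0.25 to 0.09) and -0.02 (-0.15 to 0.1) in the 2 lines, and Crh at -0.16 (-0.46 to 0.13) and -0.02 (-0.33 to 0.28).

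The KO-WT difference of Crhbp was also compared between the states. Its change with the open field was 0.25 (SE 0.16, 95% interval -0.08 to 0.59) in the Glu-CB1 line and 0.04 (SE 0.12, 95% interval -0.21 to 0.29) in the GABA-CB1 line, with adjusted p of 1 and 0.897 (edgeR). In the Glu-CB1 line it was 0 without the libraries low in Xkr4, 0.11 without the third WT basal library and 0.17 without the fifth WT open field library, and it was not called in any fit. In the Glu-CB1 interaction no member was called by edgeR or DESeq2. No member had an unadjusted p under 0.05 there (edgeR), against 379 of the 15355 genes tested, and 0% of genes were called by edgeR in either interaction. The pass in 1 state and the miss in the other, in both lines, are therefore not a shown difference between states.

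Genes that corticosteroids induce were measured beside their receptors. Of the 17 on the list, 5 rose in the Glu-CB1 line after the open field and 4 in the GABA-CB1 line, and none fell, where 0.977% and 0.787% of all genes tested were called as higher. The list was chosen with earlier results of these data known, so its excess over these shares is a description and not a test. Per1, a clock gene, rose by 0.42 (adjusted p = 0.0135) and by 0.30 (adjusted p = 0.0452). Errfi1, a feedback inhibitor of the EGF receptor, rose by 0.40 (adjusted p = 0.000666) and by 0.35 (adjusted p = 0.0038), and Arl4d, a small GTPase, by 0.51 (adjusted p = 0.0154) and by 0.53 (adjusted p = 0.0346). Tsc22d3, the glucocorticoid-induced leucine zipper, was called in the Glu-CB1 line at 0.59 (adjusted p = 0.0337), with 0.32 (adjusted p = 0.25) in the GABA-CB1 line, and Ddit4, an inhibitor of mTORC1, at 0.25 (adjusted p = 0.0292) against 0.14 (adjusted p = 0.32). Sgk1, a serum- and glucocorticoid-regulated kinase, was called in the GABA-CB1 line at 0.53 (adjusted p = 0.0114), with 0.46 (adjusted p = 0.0512) in the Glu-CB1 line. The list medians were 0.25 and 0.23 against -0.004 and 0 over all genes, and several of these genes, Per1 and Sgk1 among them, are known to respond to neuronal activity as well. Fkbp5, the receptor chaperone that corticosteroids induce, was at 0.16 (adjusted p = 0.104) and 0.11 (adjusted p = 0.288). In none of the 4 comparisons of KO with WT was a gene of this list called, where 0.0198% to 0.272% of all genes were.

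**Figure D4:**
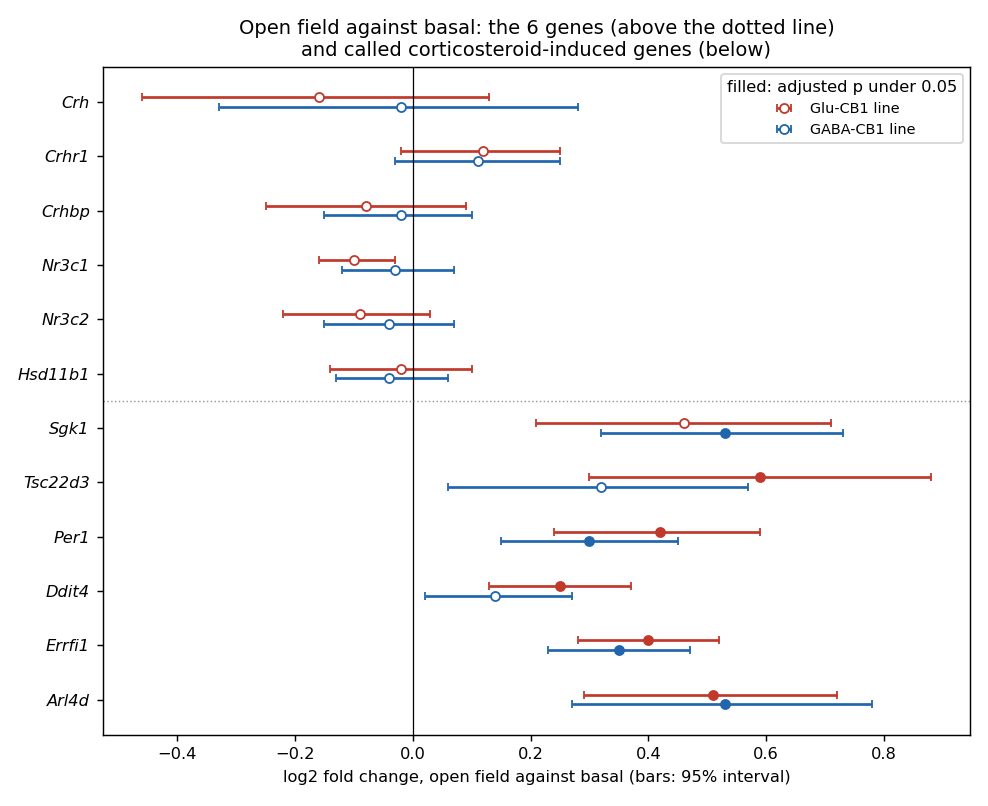
log2 fold change between open field and basal mice over both genotypes (x axis) of the 6 genes (above the dotted line) and of the 6 called corticosteroid-induced genes (below), with 95% intervals (bars), in the Glu-CB1 line (red) and the GABA-CB1 line (blue); filled symbols have an adjusted p under 0.05. The 6 genes lie between -0.16 and 0.12 with open symbols, whereas Per1, Errfi1 and Arl4d lie between 0.30 and 0.53 with filled symbols in both lines.

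Markers of neighbouring areas also differed in the comparison in which Crhbp rose. In the Glu-CB1 line after the open field, the thalamic markers Prkcd, a protein kinase C, and Plekhg1, a guanine nucleotide exchange factor, fell by 0.58 (adjusted p = 0.00309) and 0.42 (adjusted p = 0.0424) on the log2 scale. Iyd, a marker of CA2 and CA3 on the list used here, fell by 0.56 (adjusted p = 0.0463), and Fezf2, a transcription factor of deep-layer cortical neurons, rose by 0.33 (adjusted p = 0.0361). The summed level of the 5 thalamic markers, all detected, was 130 to 152 CPM in the WT and 104 to 122 CPM in the KO libraries of that comparison, so that these groups did not overlap. In the basal GABA-CB1 groups the 1 called marker of another cell type was Bok, a BCL2-family gene on the list for CA2 and CA3, with a log2 fold change of -0.52 (adjusted p = 0.00328), and the thalamic sums were 121 to 157 CPM in WT and 133 to 147 CPM in KO libraries. In the GABA-CB1 line after the open field no marker was called. All 8 CA2 and CA3 markers were higher in KO mice there (median log2 fold change 0.2), with sums of 405 to 496 CPM in WT and 490 to 582 CPM in KO libraries. All 5 choroid plexus markers were also higher (median 2.55), in a KO group with 1 library high in Ttr. Of the 6 CA1 markers, 2 were higher and 4 lower. The part of these markers in the differences of Crhbp and the other members was not tested.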

How the data were processed

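The authors trimmed single reads with bbduk, aligned them to mm10 with STAR 2.6.0a and deposited raw counts per gene from featureCounts 1.6.2 (reverse-strand option, iGenomes annotation), without normalization. Libraries were made by single-primer isothermal amplification without molecular identifiers, so counting error is only part of the spread. The submitters' processing notes also name FastQC and MultiQC 1.8. Groups came from the sample titles, and 48 columns were used. The study's text gives the sizes of the GABA-CB1 open field groups in the reverse order of the labels. The labels were used, and Cnr1 separated the libraries as labelled. No label gives a sequencing batch. Ranges of the animal numbers in the titles served as a covariate. All 14 libraries low in Xkr4 were in the lowest range of their line.

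Genes were filtered with filterByExpr and tested with edgeR 4.0.16 (TMM, quasi-likelihood; R 4.3.3), with Benjamini-Hochberg adjustment over all genes tested and a threshold of 0.05. KO and WT were compared in the 2 groups concerned, and the open field, both states together and the line differences in fits of the 4 groups concerned. CPM values use TMM factors over all 48 libraries. Likeness to each member used log2 CPM with a prior count of 2. The 3 most similar genes are named per member, with every called gene of the lists, except that some items are not reported here. Ratios were tested with exact permutation tests (scipy 1.17.1). Alternatives were DESeq2 1.42.0, RLE factors, no filter, a minimum of 10 counts, all libraries in 1 fit, the animal-number covariate, a block for the replicate number, and omission of each library in turn. Chosen after seeing the data were the first principal component as a covariate and leaving out the 14 libraries low in Xkr4 or the 4 high in Ttr. The code was tested on simulated data. The 6 genes and the gene lists were chosen with earlier results of these data known. Replicates were separate mice, and none of the 123 replicate pairs looked like a repeat deposit of 1 library. Sequences are from RefSeq (GRCm38.p6).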

Additional observations from a re-analysis of the deposited data

Results flagged for a closer look

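The KO-WT difference of Crhbp was flagged because it differed between the lines by a direct test (edgeR): by 0.8 on the log2 scale (SE 0.14, adjusted p = 0.0075) in the basal state and by 1.01 (SE 0.15, adjusted p = 0.000947) after the open field, Glu-CB1 minus GABA-CB1. After the open field, all 7 Glu-CB1-KO libraries were above all WT libraries, while 4 of 5 GABA-CB1-KO libraries were below all WT libraries. In the search for single libraries far from the rest of their group, 2 flags arose in 48 combinations of gene and group, where chance flags about 1 in 20. Crh in the fourth Glu-CB1-KO basal library was at 1.25 CPM, with the next at 0.888 CPM and the lowest at 0.662 CPM. Crhr1 in the fifth Glu-CB1-KO open field library was at 8.64 CPM, with the next at 10.7 CPM and the highest at 11.9 CPM.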

How the results depend on the processing

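The count of members called changed only through Crhbp. It went from 1 to 0 for KO against WT after the open field in the Glu-CB1 line with the replicate block (log2 fold change 0.66, adjusted p = 0.182) and without the 14 libraries low in Xkr4 (0.58, 0.0803). It went from 1 to 0 in the basal GABA-CB1 line with all 48 libraries in 1 fit (-0.44, 0.07), with the range of animal numbers as a covariate (-0.43, 0.198) and with the replicate block (-0.44, 0.0637), and from 1 to 0 for the basal line difference with the animal-number covariate (0.7, 0.0772). It went from 0 to 1 for the open field GABA-CB1 line with DESeq2. Leaving out 1 library at a time gave 0 to 1 members called for KO against WT after the open field in each line, and the main count in the other comparisons. The same replicate number did not mark paired mice: deviations of 21 same-numbered pairs correlated between -0.335 and 0.317, with 4 above 0.1.

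Over all alternatives, 2134 fits of the other 5 members gave 0 calls, the lowest adjusted p being 0.0554. A sign changed in 94 fits of a member, in 90 of them for values within 1 SE of 0. The other 4 were uncalled: without the libraries low in Xkr4, the Crh interaction in the Glu-CB1 line was -0.26, the basal line difference of Crh 0.11 and the basal WT difference of Crh between lines -0.03, and with the animal-number covariate the basal WT difference of Crhbp was 0.04. Group mean levels under RLE factors stayed within 1 SD in 48 of 48. The number of all genes called, used as background, depended more on the fit. Over the alternatives and the single-library omissions it ran from 2 to 7 (3 in the fit reported) and from 3 to 123 (41) for KO against WT in the Glu-CB1 line, basal and open field, from 7 to 102 (37) and from 1 to 143 (3) in the GABA-CB1 line, and from 88 to 374 (200) and from 18 to 284 (159) for the open field response in the Glu-CB1 and GABA-CB1 lines. Over both states it ran from 15 to 101 (37) and from 31 to 164 (69), for the line differences from 21 to 75 (43) and from 44 to 194 (87), for the GABA-CB1 interaction from 0 to 62 (0), and for WT against WT from 0 to 2 (0) and from 0 to 1 (0). The cause of these changes was not tested. Depth limits Crh, with 9 to 42 reads a library.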
